A study of Homo sapiens with 2 samples.

Results

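The genes described here are those of the extracellular matrix and of cell adhesion to it: collagens, laminins, integrins, fibronectin, matricellular proteins, proteoglycans and some of their relatives. They were found by a rule on the letters of the gene symbol, and 43 of the 2005 genes in the authors' deposited table matched. The rule itself uses no measured value, but that table holds only genes past the authors' limits. The matrix genes were also chosen with earlier results of these data known. The values come from HES2, an established human embryonic stem cell line, infected with a lentivirus carrying either a scramble control or an shRNA against TFCP2L1, a transcription factor of the pluripotency network. The infected cells were kept for 3 passages in basal medium with 10% KSR, FGF2 (10 ng/ml) and Activin A (10 ng/ml). There was 1 library per group, so nothing here has a replicate check, no test of the conditions was possible, and every comparison is between these 2 libraries. Which cells of a culture carried the virus, how many hairpins were used and whether the cells were a clone are not stated by the labels. Levels are in FPKM, which is read density scaled by gene length and library size. A ratio is knockdown over scramble, from inferred reads scaled by depth, with an exact (Clopper-Pearson) 95% interval that covers counting error only.

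The matrix is the protein scaffold that cells secrete and stand on. Fibrillar collagens form rope-like fibrils, network collagens and laminins form sheets such as the basement membrane, and fibronectin links both to the cell. Integrins are the pairs of alpha and beta subunits in the cell membrane that grip these proteins, and matricellular proteins and proteoglycans modify that grip and bind growth factors. Human embryonic stem cells depend on such adhesion to survive in culture, and fibronectin is known to be made by cells that leave the epiblast during gastrulation.

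All 43 genes were at least 2-fold apart in the deposited ratio, because the table holds only genes past the authors' limits. Of these, 25 were higher and 18 lower in the knockdown library. Over all genes with a row, 54.1% were higher and 45.9% lower, so the split of the matrix genes (58.1% higher) was near that of the table. With a pseudocount of 0.1 FPKM and a level of 1 FPKM or more in at least 1 library (reached by 34 of the 43), 21 (48.8% of the 43) were at least 2-fold higher, as was 40.8% of the table, and 12 (27.9%) at least 2-fold lower, as was 35.4% of the table. Past 4-fold there were 5 higher and 2 lower, against 12.0% and 5.34% of the table. The count of lower genes moves with these settings: with a pseudocount of 1 FPKM there were 19 higher and 4 lower past 2-fold, and with a level of 5 FPKM or more 16 higher and 2 lower. Past 4-fold either setting left 3 higher genes and 1 lower gene. At a level of 1 FPKM or more, the 34 genes had a median log2 ratio of 1.14, against 1.02 over the 1587 genes of the table at such a level. The table has no gene between the authors' limits, so such a median depends mainly on the split of directions. With a counting interval wholly beyond 2-fold there were 20 higher genes (38.1% of the table) and 9 lower (26.5% of the table), and for the other 14 the interval reached to less than 2-fold.

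More of these genes had a row than is usual for a gene. RefSeq lists 165 human coding genes whose symbol matches, and 26.1% of them had a row, while 10.8% of the 18489 genes the authors tested did (5.86% as higher and 4.98% as lower). The denominators differ, since the number tested was inferred and the RefSeq genes include some that may not have been tested. By family, 14 of 44 collagen chains (31.8%), 3 of 4 matrilins (75%) and 3 of 3 FLRT genes (100%) had a row. So did 5 of 26 integrin subunits (19.2%) and 1 of 12 laminin chains (8.33%), beside the 10.8% of the genes tested. None of the 3 fibrillins, the 6 fibulins with EFEMP, the 4 LTBP genes or the 4 SPON and SPARC genes had one. At a share of 10.8%, families this small can easily hold no row. A gene without a row may have differed by less or may not have been tested, and its level is unknown here.

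The stretches of DNA just before the start of 5 of these genes are shown because the genes belong to patterns described below: the abundant genes COL6A2 and FN1, the matricellular gene THBS2, and FLRT3 and FLRT1, relatives with opposite differences. RefSeq (GRCh38.p14) gave such a window for 34 of the 43 genes (windows of COL1A1, COL5A2 and COL6A1 were not used here), and each window below is the 250 bases before the annotated start, 5′ to 3′ on the gene's strand. They are chr21:46097862-46098111 on the plus strand, chr2:215436069-215436318 on the minus strand, chr6:169253847-169254096 on the minus strand, chr20:14337613-14337862 on the minus strand and chr11:64035681-64035930 on the plus strand. Capitals mark matches, on either strand, to any of 6 short motifs. These are the TATA box in the form TATAAA, the GC box in the form GGGCGG, the CCAAT box, the letters GGAATG bound by TEAD factors, the letters CTTTGA bound by factors of the TCF and LEF family, and the letters TGTTTAC bound by forkhead (FOX) factors.
COL6A2: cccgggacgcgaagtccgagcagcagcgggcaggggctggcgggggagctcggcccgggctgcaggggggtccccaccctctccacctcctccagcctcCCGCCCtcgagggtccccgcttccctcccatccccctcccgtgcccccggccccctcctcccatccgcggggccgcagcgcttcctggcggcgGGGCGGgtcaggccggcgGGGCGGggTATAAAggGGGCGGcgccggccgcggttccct
FN1: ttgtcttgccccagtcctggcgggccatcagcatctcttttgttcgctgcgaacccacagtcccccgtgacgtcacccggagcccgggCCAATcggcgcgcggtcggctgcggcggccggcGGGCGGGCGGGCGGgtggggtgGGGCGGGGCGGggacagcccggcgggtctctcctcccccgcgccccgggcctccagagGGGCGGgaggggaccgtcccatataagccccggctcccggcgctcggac
THBS2: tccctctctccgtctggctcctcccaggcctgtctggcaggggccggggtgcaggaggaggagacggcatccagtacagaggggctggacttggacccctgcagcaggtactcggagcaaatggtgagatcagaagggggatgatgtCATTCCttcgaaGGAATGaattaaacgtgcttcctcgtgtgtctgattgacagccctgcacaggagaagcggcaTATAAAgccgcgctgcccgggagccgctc
FLRT3: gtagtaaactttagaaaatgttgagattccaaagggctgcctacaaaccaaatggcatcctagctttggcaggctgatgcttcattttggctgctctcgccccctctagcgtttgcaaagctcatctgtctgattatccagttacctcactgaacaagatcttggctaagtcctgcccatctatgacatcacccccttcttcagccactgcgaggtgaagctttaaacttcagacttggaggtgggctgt
FLRT1: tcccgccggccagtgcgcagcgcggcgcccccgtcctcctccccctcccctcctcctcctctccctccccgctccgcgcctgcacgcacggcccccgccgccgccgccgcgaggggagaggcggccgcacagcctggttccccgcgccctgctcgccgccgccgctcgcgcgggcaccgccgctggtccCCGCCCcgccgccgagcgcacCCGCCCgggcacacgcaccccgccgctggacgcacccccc
The COL6A2 window held a TATA box between GC boxes, the FN1 window a run of GC boxes and a CCAAT box, the THBS2 window a TATA box and TEAD letters, and the FLRT1 window GC boxes. The FLRT3 window, with 47.6% G and C against 84.0% in FLRT1, held none of the 6 motifs. Matches were counted where they overlapped one another too. Over the 34 windows, GC box letters were in 55.9% (42.3% of all 27305 RefSeq windows of this length), CCAAT in 20.6% (33.0%), TATA letters in 8.82% (11.1%), TEAD letters in 14.7% (11.9%), TCF/LEF letters in 11.8% (11.4%) and FOX letters in none (2.98%). Of the 21 windows of higher genes and the 13 of lower genes, GC box letters were in 12 and 7, CCAAT in 4 and 3, TCF/LEF letters in 3 and 1, TATA letters in 3 and 0, and TEAD letters in 5 (COL12A1, EMILIN2, IGFBP5, MATN3 and THBS2) and 0. No test was made of these splits. The shares over all windows are not matched for base composition: the median G and C content was 67.4% in the 34 windows and 58% over all windows. These are matches of letters only.

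The targeted gene itself, TFCP2L1, had 3.19 FPKM under the scramble control and 0.33 FPKM under the shRNA, 9.70-fold lower (interval 7.56 to 12.6). The libraries held about 23480000 and 22710000 reads, as inferred, and the matrix genes held 32 to 25248 reads each over both. Markers of other cell types moved with the whole comparison. All 10 of 10 definitive endoderm markers were higher (summed level 9.24 and 1124 FPKM, with SOX17 at the lowest listed value in the scramble library). So were 6 of 7 primitive streak markers (36.0 and 471 FPKM), while 5.86% of the genes tested had a row as higher. Of 6 primitive or parietal endoderm markers 2 were higher, PDGFRA and THBD, and of 3 neuroectoderm markers 1, NES. Of 4 endothelium markers 1 was lower, TIE1, and none of 5 trophectoderm markers had a row. The marker lists were chosen with earlier results of these data known. Of 10 markers of undifferentiated cells, UTF1, PODXL and SOX2 were lower (491 and 180 FPKM summed) and the others, POU5F1 and NANOG among them, had no row. Of 9 fibroblast and mesenchyme markers, COL1A1 and S100A4 were lower and 7 had no row, among them THY1, PDGFRB, COL1A2, COL3A1, DCN and LUM. The summed level of that list (114 and 25.4 FPKM) is nearly all COL1A1 (110 and 24.4 FPKM), which is itself 1 of the 43 genes, so it says nothing apart from COL1A1. The part of cell mixture in the differences below was not tested, and in bulk RNA fewer cells of a type and less RNA per cell cannot be told apart.

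Fibrillar collagens went both ways, COL1A1 and both collagen XI chains lower and both collagen V chains higher. COL1A1, the main chain of collagen I, stood first of the 43 genes in the scramble library with 110 FPKM, and was the fifth in the knockdown library with 24.4 FPKM. It was 4.52-fold lower (interval 4.35 to 4.69), and its share of the summed level of the 43 genes was 30.3% under the scramble control and 3.98% under the shRNA. COL5A2, a chain of collagen V, which starts and thins collagen I fibrils, was at 10.5 and 40.5 FPKM, a ratio of 3.86 (interval 3.66 to 4.08). So COL1A1 stood at 10.5 times the level of COL5A2 under the scramble control and at 0.602 times under the shRNA. COL5A1, the partner chain in collagen V, was at 5.75 and 12.8 FPKM (ratio 2.22, interval 2.08 to 2.36). Both collagen V chains were therefore higher, COL5A2 by more than COL5A1, and their intervals did not overlap. The collagen XI chains, which are close relatives of collagen V and typical of cartilage, went the other way. COL11A1 was at 3.26 and 1.49 FPKM, 2.18-fold lower (interval 1.87 to 2.54), and COL11A2 at 1.43 and 0.50 FPKM, 2.88-fold lower (interval 1.995 to 4.23). COL1A2, COL2A1, COL3A1 and COL5A3 had no row.

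Collagen VI, which forms beaded filaments around cells, had the highest transcript levels of the 43 genes in the knockdown library. COL6A1 was at 72.1 and 191 FPKM, the latter being the highest of all 43 levels in that library, a ratio of 2.65 (interval 2.58 to 2.73). COL6A2 was at 64.9 and 132 FPKM, a ratio of 2.03 (interval 1.96 to 2.10). These genes lie next to each other on chromosome 21 and were the only pair of neighbouring coding genes among the 43. Their levels were within 1.11 times of each other under the scramble control and 1.45 times under the shRNA. COL6A3, which encodes the third chain, had no row.

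The other collagens were far less abundant and went both ways. COL13A1, a transmembrane collagen, was higher at 1.79 and 5.42 FPKM, with a ratio of 3.05 (interval 2.47 to 3.79), and COL25A1, a further transmembrane collagen, was lower at 3.0 and 1.11 FPKM (2.70-fold, interval 2.15 to 3.42). The partner chains of collagen VIII, a network collagen of vessel walls and the cornea, also parted. COL8A2 was at 1.81 and 0.38 FPKM, 4.81-fold lower (interval 3.40 to 6.97). COL8A1 was at 0.07 and 0.39 FPKM on 5 and 27 reads, a ratio of 5.59 (interval 2.12 to 18.6), so the chains stood at nearly the same level in the knockdown library only. Of the fibril-associated collagens, COL12A1 had 0.40 and 0.88 FPKM (ratio 2.22, interval 1.68 to 2.95), whereas COL20A1 was at 0.73 and 0.31 FPKM (2.42-fold lower, interval 1.56 to 3.82). COL4A4, a chain of the collagen IV of kidney basement membrane, was at 0.68 and 0.22 FPKM (3.07-fold lower, interval 2.23 to 4.28), and COL4A1 and COL4A2, the chains of most basement membranes, had no row. Over all 14 collagens, 7 were higher and 7 lower, and their summed level was 277 FPKM under the scramble control and 411 FPKM under the shRNA.

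**Figure D1:**
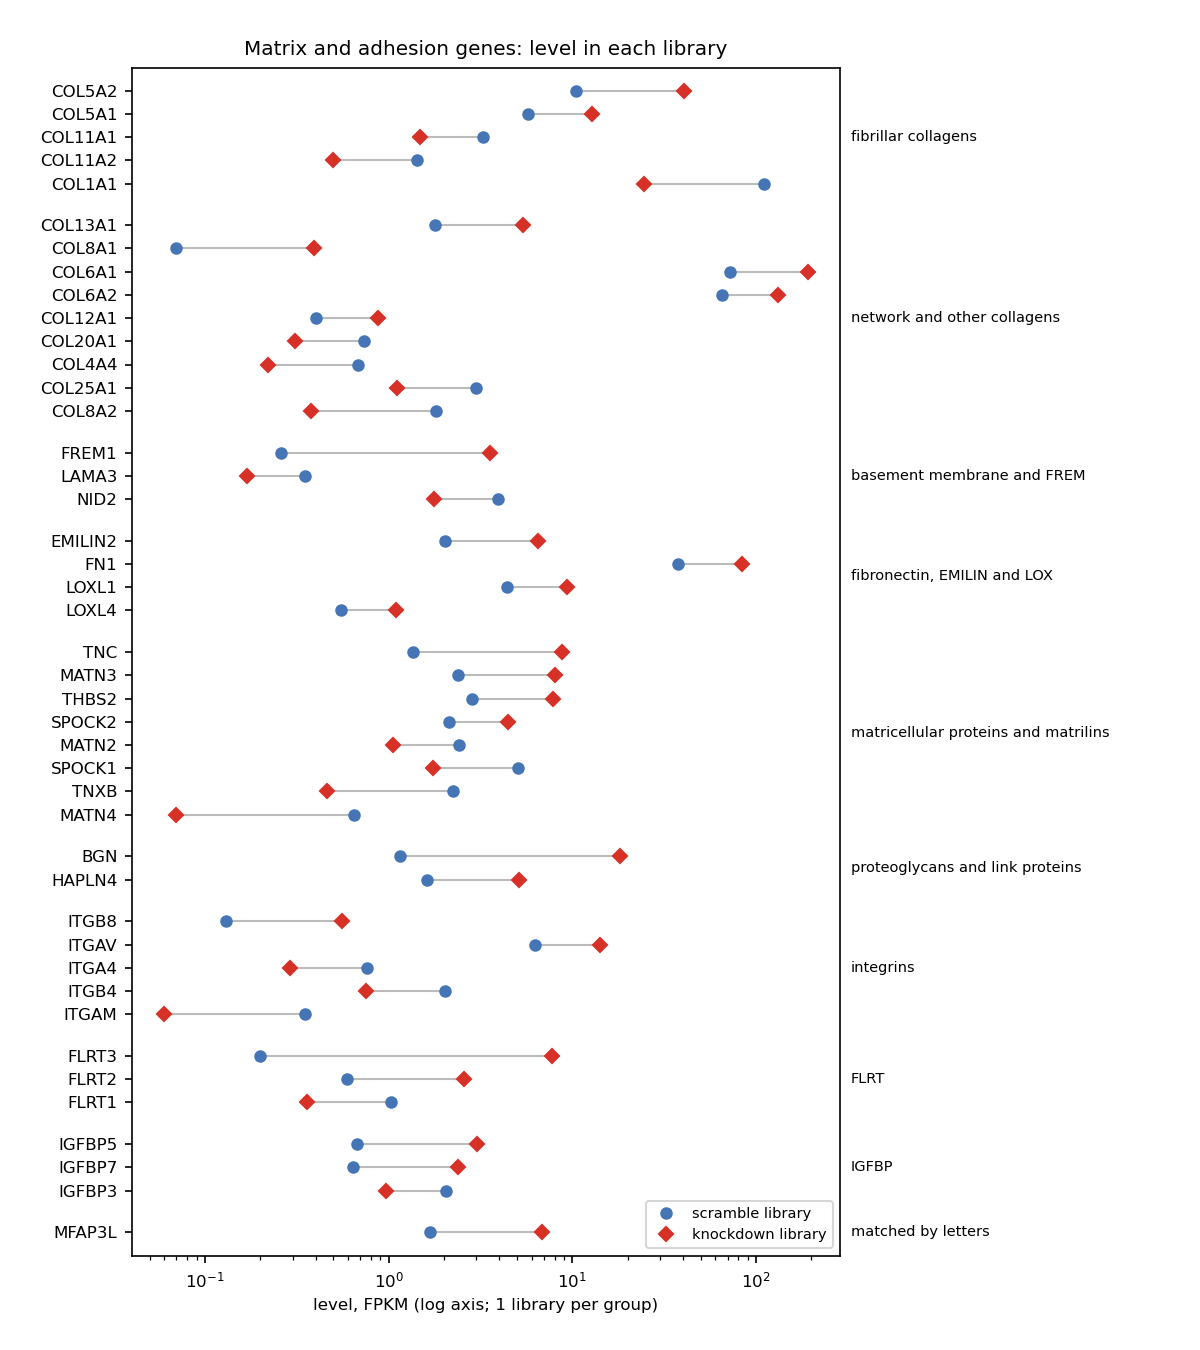
Level of each of the 43 matrix and adhesion genes in the scramble library (circles) and the knockdown library (diamonds), in FPKM on a log axis, grouped by family, with 1 library per group. COL1A1 is the highest circle at 110 FPKM and COL6A1 the highest diamond at 191 FPKM, and most families hold genes of both directions.

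Among basement membrane genes, FREM1 stood out from the rest. FREM1, a protein that anchors epithelia to the matrix beneath and is named for its relation to FRAS1, was at 0.26 and 3.55 FPKM, a ratio of 13.4 (interval 9.02 to 20.9). NID2, a nidogen that bridges laminin and collagen IV, was lower at 3.92 and 1.76 FPKM (2.23-fold, interval 1.86 to 2.67), and 30.0% of its exon bases overlap another gene, RTRAF, so its reads are uncertain. LAMA3, an alpha chain of epithelial laminin, was at 0.35 and 0.17 FPKM, 2.07-fold lower (interval 1.497 to 2.90). It was the one laminin chain with a row, and the other 11, with NID1, FRAS1, FREM2, FREM3 and AGRN, had none.

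Fibronectin, the microfibril-linked EMILIN2 and the lysyl oxidase relatives were all higher. FN1, which encodes fibronectin, was at 37.5 and 83.5 FPKM, a ratio of 2.23 (interval 2.17 to 2.29). COL6A1, COL6A2 and FN1 together held 47.9% (scramble) and 66.3% (knockdown) of the summed level of the 43 genes. EMILIN2 was at 2.03 and 6.47 FPKM (ratio 3.19, interval 2.70 to 3.78). LOXL1, which cross-links elastin and collagen, was at 4.41 and 9.39 FPKM (ratio 2.14, interval 1.83 to 2.51). Of its exon bases 9.21% overlap an antisense gene. LOXL4 was at 0.55 and 1.10 FPKM (ratio 2.05, interval 1.42 to 2.98), at the edge of the authors' limit. LOX, LOXL2 and LOXL3 had no row.

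Matricellular proteins and matrilins went both ways, 4 higher and 4 lower, often within a family. TNC, or tenascin C, which loosens adhesion to fibronectin in moving and developing tissue, was at 1.36 and 8.75 FPKM (ratio 6.45, interval 5.67 to 7.36). TNXB, the tenascin of collagen-rich connective tissue, was at 2.23 and 0.46 FPKM (4.85-fold lower, interval 3.79 to 6.27), and its reads are uncertain because 14.4% of its 31-base words also occur in another gene, TNXA above all. TNC thus stood at 0.610 times the level of TNXB under the scramble control and at 19.0 times under the shRNA. THBS2, a thrombospondin that binds matrix proteases, was at 2.84 and 7.84 FPKM (ratio 2.77, interval 2.46 to 3.12). Testicans are secreted proteoglycans of the SPARC family. SPOCK2 had 2.14 and 4.46 FPKM (ratio 2.08, interval 1.80 to 2.42), whereas SPOCK1 had 5.09 and 1.75 FPKM (2.90-fold lower, interval 2.46 to 3.44). Matrilins are adaptors between collagen fibrils and proteoglycans. MATN3 had 2.39 and 8.08 FPKM (ratio 3.40, interval 2.81 to 4.13), whereas MATN2 was at 2.42 and 1.05 FPKM (2.31-fold lower, interval 1.82 to 2.96). These nearly equal scramble levels became 7.70 times apart in the knockdown library. MATN4 was at 0.65 and 0.07 FPKM on 33 and 3 reads, 10.6-fold lower (interval 3.34 to 54.2).

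**Figure D2:**
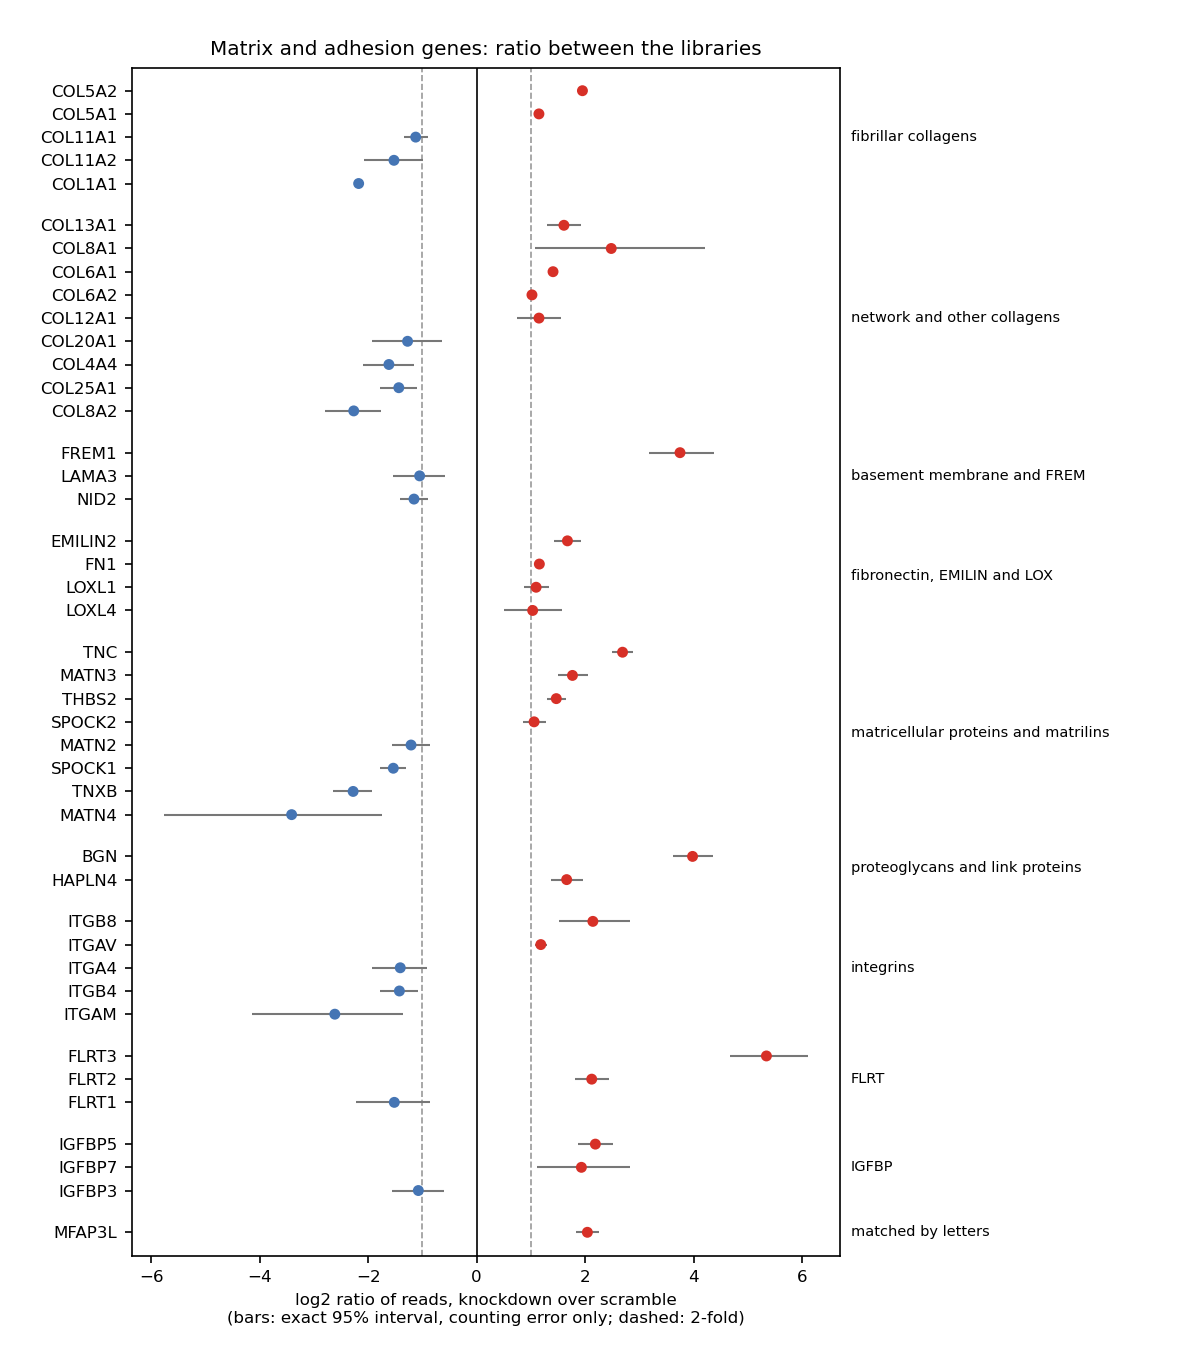
Log2 ratio of reads, knockdown over scramble, for the 43 genes, with exact 95% intervals that cover counting error only, and dashed lines at 2-fold. Points right of 0 were higher in the knockdown library (25 genes) and points left of 0 lower (18 genes), with FLRT3 and BGN farthest to the right and MATN4, on 3 knockdown reads, farthest to the left.

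BGN and HAPLN4, a proteoglycan and a link protein, were both higher, whereas the testican proteoglycans described above went both ways. BGN, biglycan, a small leucine-rich proteoglycan that binds collagen and TGF-beta family ligands, was at 1.15 and 18.2 FPKM, a ratio of 15.8 (interval 12.3 to 20.6), and it moved from rank 27 to rank 6 among the 43 levels. HAPLN4, a link protein that ties proteoglycans to hyaluronan, was at 1.62 and 5.10 FPKM (ratio 3.16, interval 2.58 to 3.88). All of its 31-base words (100%) also occur in an overlapping annotated gene, so HAPLN4 reads cannot be assigned to it alone. VCAN, DCN and LUM had no row.

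The integrin subunits with a row were 2 higher and 3 lower. ITGAV, an alpha subunit that binds fibronectin and latent TGF-beta and pairs with several beta subunits, ITGB8 among them, was at 6.26 and 14.2 FPKM (ratio 2.27, interval 2.11 to 2.45). ITGB8 was at 0.13 and 0.56 FPKM (ratio 4.42, interval 2.86 to 7.05), below 1 FPKM in both libraries. So both subunits of this pair were higher, at levels that differed widely. ITGB4, the beta subunit of hemidesmosomes that grip laminin, was at 2.02 and 0.75 FPKM (2.68-fold lower, interval 2.12 to 3.42). ITGA4, known for binding fibronectin and VCAM1, was at 0.76 and 0.29 FPKM (2.65-fold lower, interval 1.89 to 3.79), and ITGAM, a leukocyte subunit, at 0.35 and 0.06 FPKM on 38 and 6 reads (6.12-fold lower, interval 2.57 to 17.7). ITGB1, the partner of most alpha subunits, and ITGA5, ITGA6 and ITGB5 had no row.

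FLRT proteins are leucine-rich membrane proteins with fibronectin-like repeats that mediate cell adhesion and modulate FGF receptors, and all 3 were in the table. FLRT3 had the highest ratio of the 43 genes, at 0.20 and 7.73 FPKM (ratio 40.6, interval 25.5 to 68.8). By the log2 ratio it ranked 33 among all 2005 genes. FLRT2 was at 0.59 and 2.56 FPKM (ratio 4.35, interval 3.53 to 5.40). FLRT1 was at 1.03 and 0.36 FPKM (2.86-fold lower, interval 1.81 to 4.65), and it is uncertain because 25.3% of its exon bases overlap other annotated genes. The order of the family was the reverse in the knockdown library: FLRT1 was the highest of the 3 in the scramble library, and FLRT3 was 21.5 times the level of FLRT1 in the knockdown library.

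Insulin-like growth factor binding proteins are secreted carriers that also sit in the matrix. IGFBP5 had 0.67 and 3.03 FPKM (ratio 4.56, interval 3.65 to 5.74). IGFBP7 was at 0.64 and 2.40 FPKM on 16 and 59 reads (ratio 3.81, interval 2.17 to 7.10), while IGFBP3 was at 2.04 and 0.97 FPKM (2.11-fold lower, interval 1.52 to 2.94). IGFBP3 was thus the highest of the 3 in the scramble library and the lowest in the knockdown library. Of the exon bases of IGFBP7, 18.9% overlap other genes. MFAP3L matched the symbol rule by its letters alone. It is kept in the counts over the 43 genes, and without it 20 rather than 21 genes were at least 2-fold higher. It was at 1.67 and 6.85 FPKM (ratio 4.12, interval 3.58 to 4.75).

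Within a library the length-scaled levels of related genes can be set side by side, for 12 pairs chosen after their values were seen. In 10 of the 12 pairs the first gene was higher and the second lower in the knockdown library, which the choice of pairs fixed. Among these 12 the shift was widest in FLRT3 over FLRT1, from 0.194 to 21.5, followed by TNC over TNXB, from 0.610 to 19.0, and COL8A1 over COL8A2, from 0.0387 to 1.03. The values of these pairs are uncertain, since FLRT1 and TNXB share sequence or exon bases with other genes and COL8A1 had 5 scramble reads, and the order of the pairs is not resolved. COL5A2 over COL1A1 moved from 0.0951 to 1.66, on the most reads of these 4 pairs. IGFBP5 over IGFBP3 moved from 0.328 to 3.12 and SPOCK2 over SPOCK1 from 0.420 to 2.55. The other pairs, COL6A1 over COL6A2 and COL5A2 over COL5A1, were higher in both genes and moved least, by 1.31 and 1.74 times.

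**Figure D3:**
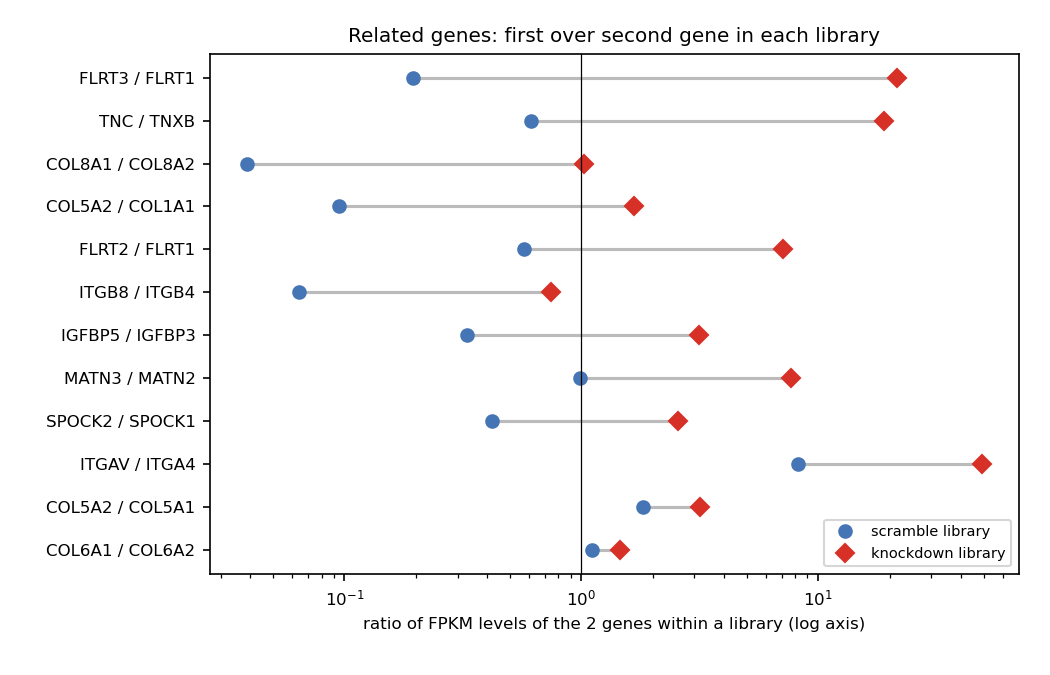
Ratio of the FPKM levels of 2 related genes within the scramble library (circles) and within the knockdown library (diamonds), on a log axis, for 12 pairs ordered by shift. The pairs were chosen after their values were seen, and FLRT1, TNXB and COL8A1 are uncertain. FLRT3 over FLRT1 moved the farthest, from 0.194 to 21.5, and COL6A1 over COL6A2 the least, from 1.11 to 1.45.

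Summed over the 43 genes, the level was 364 FPKM under the scramble control and 613 FPKM under the shRNA, or 2.42% and 2.76% of the summed level of all genes in the table. A few genes made up most of it: 5 genes were above 10 FPKM in the scramble library (COL1A1, COL6A1, COL6A2, FN1 and COL5A2) and 8 in the knockdown library, where COL5A1, BGN and ITGAV joined them. At the other end, 9 of the 25 higher genes were under 1 FPKM in the scramble library and 12 of the 18 lower genes were under 1 FPKM in the knockdown library. The genes are long, with a median length of 4841 bases against 3145 over the table, and held a median of 523 reads against 268. In the deposited annotation 60.5% carried a cellular component term with the word extracellular, against 10.4% of the table.

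**Figure D4:**
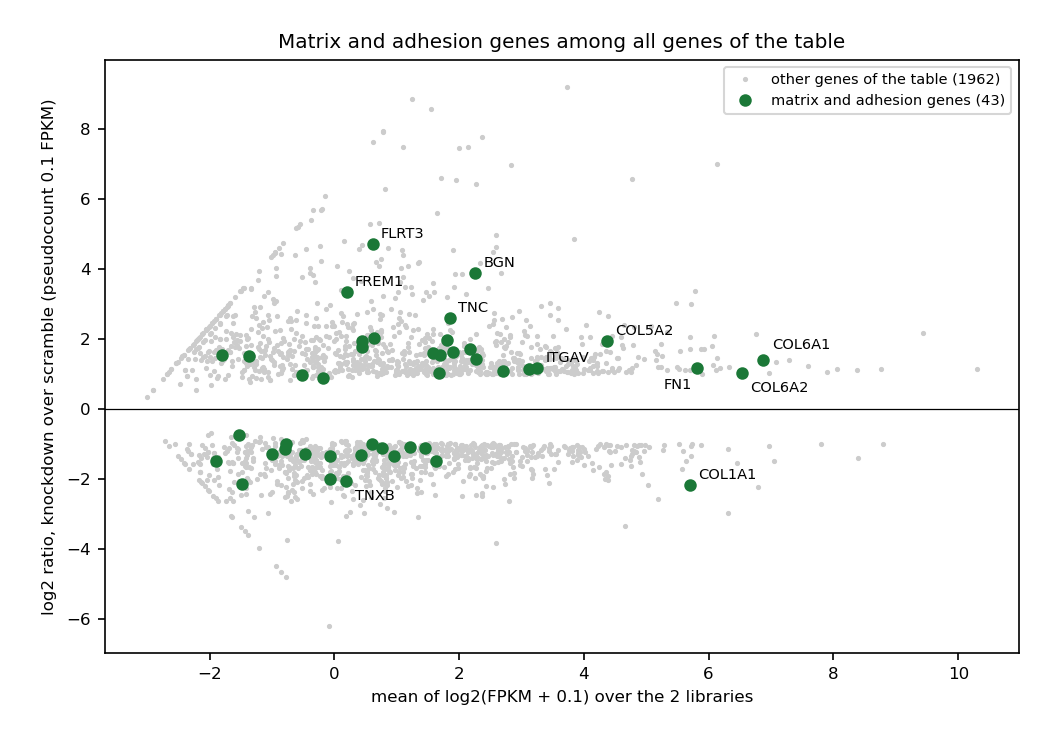
Log2 ratio, knockdown over scramble, against the mean log2 level of the 2 libraries (both with a pseudocount of 0.1 FPKM) for the 43 matrix and adhesion genes (large points) and the other 1962 genes of the table (small points). The matrix genes spread over both arms of the table, and the empty band around 0 is the authors' limit of 2-fold.

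Other genes of matrix making and sensing were read from 7 lists outside the symbol rule, 156 genes in all. A row in the table was held by 10.8% of the genes the authors tested, and 54.1% of the rows were higher. The lists were chosen with earlier results of these data known, so their shares are descriptions and no test of enrichment. Of other matrix glycoproteins 15 of 36 (41.7%) had a row, 9 higher and 6 lower. ECM1 had 0.37 and 9.71 FPKM, a ratio of 26.6 (interval 16.6 to 45.3). The laminin-like netrin NTN1 stood at 2.54 and 15.5 FPKM, while the matricellular CTGF was at 80.5 and 7.83 FPKM (10.3-fold lower, interval 9.28 to 11.4) and TINAGL1 at 9.73 and 1.65 FPKM. The 15 were lower as a sum (173 and 73.0 FPKM) although 9 of them were higher one by one. Of 29 further proteoglycan and hyaluronan genes 7 (24.1%) had a row, 3 higher and 4 lower. All 3 higher ones concern hyaluronan: the synthase HAS2, at 0.98 and 33.8 FPKM (ratio 34.4, interval 27.3 to 43.9), the synthase HAS3, at 5.70 and 15.3 FPKM, and the receptor CD44, at 3.66 and 7.49 FPKM. Other hyaluronan genes of this list, HAS1, HMMR and LYVE1, had no row. The core proteins GPC3 (47.5 and 18.3 FPKM), ACAN (0.97 and 0.29 FPKM) and FMOD (0.28 and 0.03 FPKM, on 21 and 2 reads) were among the lower ones.

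Of 22 collagen processing genes 4 (18.2%) had a row, beside 10.8% of the genes the authors tested. The procollagen proteases ADAMTS14 (2.29 and 0.44 FPKM, 5.20-fold lower, interval 3.89 to 7.07) and ADAMTS2 (4.23 and 1.69 FPKM) were lower. BMP1 (2.41 and 6.75 FPKM) and its relative TLL1 (0.02 and 0.31 FPKM, on 3 and 34 reads) were higher. None of the prolyl and lysyl hydroxylases P4HA1 to P4HA3 and PLOD1 to PLOD3, nor the collagen chaperone SERPINH1, had a row. Of 25 matrix metalloproteinases, ADAMTS proteases and inhibitors 7 (28.0%) had a row. Of these 4 were higher, with the protease ADAMTS1 at 1.80 and 5.83 FPKM and the inhibitor TIMP3 at 1.64 and 6.29 FPKM, and 3 lower, with ADAMTS4 at 6.68 and 2.18 FPKM. Of 21 focal adhesion genes 1 (4.76%) was listed, FERMT1, a kindlin that activates integrins, at 3.92 and 12.4 FPKM. Among 12 non-integrin matrix receptors 1 (8.33%) was listed, DDR2, which binds fibrillar collagen, at 2.55 and 0.58 FPKM (4.39-fold lower, interval 3.11 to 6.31). Of 11 genes of the epithelial to mesenchymal transition 5 (45.5%) were listed, all higher. Among them were the cadherin CDH2 (19.7 and 62.8 FPKM), vimentin, VIM (85.6 and 215 FPKM), and the transcription factor TWIST1 (0.13 and 0.74 FPKM, on 5 and 28 reads). SNAI1, SNAI2 and CDH1 had no row.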

How the data were processed

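RNA was sequenced on a BGISEQ-500 from 1 library per group, per the labels' protocols. The submitters' processing notes name the build hg19 and Bowtie 0.12.2, while no source used here gives the read counter, the test, the filters or the strand setting. The authors' deposited table gives levels whose header says expression only, read here as FPKM because they scale with inferred reads over gene length and library size. It also gives the authors' log2 ratio and the authors' p-values and false discovery rates, the largest being 0.000990, and no gene has a log2 ratio smaller in size than 1. Their ratio gives whole ranks for 18489 tested genes.

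Reads were inferred as the whole numbers that give both FPKM values and the authors' p-value, read as a doubled tail of the Audic and Claverie test of 2 libraries (within 0.0002 on the natural log). Where several pairs matched, the pair nearest to the levels was kept. Where none matched, the length was left free from 0.3 to 1.1 of the listed one, with the ratio of the levels kept. A single match found in that way was also counted as a pair. The depth ratio was 1.03 (scramble over knockdown). A pair was found for 75.5% of 1926 genes with a p-value above 0 and for 28 of the 43 matrix genes. For 10 others (FREM1, TNC, COL5A1, SPOCK2, COL12A1, LAMA3, NID2, COL11A2, COL25A1 and TNXB) reads keep the ratio of the levels at the size the p-value implies. For COL1A1, COL5A2, COL6A1, COL6A2 and FN1, whose p-value is printed as 0, reads came from the levels. Without molecular identifiers reads may be copies of 1 molecule. On a simulated table of 2005 genes 97.0% had a pair, and the interval held the true ratio for 97.0% of 200 changed genes.

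Log2 ratios use a pseudocount of 0.1 FPKM, which pulls the ratios of low genes toward 0. The named genes are all those the symbol rule matches, and the list genes named are among the 3 highest and the 3 lowest of each list. Shared 31-base words and exon overlaps came from GENCODE 29, and symbols and windows from RefSeq. The matrix genes, lists and tests were chosen with earlier results of these data known. The count tests of the authors were not repeated, since the table holds no counts. Computation used Python 3.11.15, numpy 2.4.6, scipy 1.17.1, pandas 2.3.3 and matplotlib 3.10.9.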

Additional observations from a re-analysis of the deposited data

How the results depend on the processing

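No paired analysis was possible because each group had 1 library. With a pseudocount of 1 FPKM, 4 matrix genes were lower by 2-fold or more, 3 higher by 4-fold or more and 1 lower by 4-fold or more, and the median log2 ratio was 1.04. With a level of 5 FPKM or more, these counts were 2, 3 and 1, and the median was 1.49. Without a filter on level the median was 1.03. The mean, taken over the genes with a level of 1 FPKM or more, was 0.69. The count of genes at least 2-fold higher stayed within 1.5 times of 21 under all 5 settings tried. With a pseudocount of 1 FPKM 37 ratios moved outside their counting interval with no change of direction. Setting the median of all genes of the table to 0 is a shift of 1.01, because the table has no gene between the authors' limits. It lowers all genes alike, so it says nothing on single genes beyond their distance from that limit: COL12A1 (-0.041) and LOXL4 (-0.13) turned, and COL6A2 (0.0068), SPOCK2 (0.014), LOXL1 (0.061), COL5A1 (0.12), FN1 (0.14) and ITGAV (0.16) came near 0. Depth limits the genes on few reads most: MATN4, COL8A1 and ITGAM had the widest intervals.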
